A study of Sus scrofa with 14 samples.

Results

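The genes described here are the estrogen receptor ESR1, the progesterone receptor PGR, the ligand TNFSF11 (RANKL), its receptor TNFRSF11A (RANK), the glucocorticoid receptor NR3C1 and the mineralocorticoid receptor NR3C2 of the pig. They were chosen by name, and all 6 occur among the 30071 gene identifiers of every count table. Mammary glands of multiparous sows were sampled at 5 stages: day 90 of gestation (G90), day 0 (L0) and day 20 (L20) of lactation, and 2 days (PI2) and 7 days (PI7) after natural involution. Each stage had 2 single-nucleus libraries from snap-frozen tissue, each from its own sow, so the gland data comprise 10 libraries. A tissue section was profiled at G90 and another at PI2, and milk cells were profiled once at L0 (colostrum) and once at L20 (mature milk). The sows were on a normal diet, the stage is the only difference between groups in the labels, and breed and age are not given in the sources used here.

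Steroid receptors of this family are transcription factors that act in the nucleus once a hormone binds them. In the mammary epithelium of other mammals, ESR1 and PGR are held by a minority of luminal cells, the hormone-sensing cells, which answer estrogen and progesterone and pass the signal on to their neighbours through secreted factors. RANKL is the best known of these factors in pregnancy. It binds RANK on neighbouring epithelial cells and drives their growth through NF-kB signalling, while the glucocorticoid receptor acts with prolactin in milk protein expression and the mineralocorticoid receptor governs sodium transport in epithelia.

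Levels are given as UMIs of a gene per 1000000 UMIs of the nuclei, cells or spots counted (CPM), where a UMI marks 1 captured RNA molecule. Total depth per gland ranged from 18962138 to 53165191 UMIs, 9332 to 18693 nuclei per gland were kept, and their median depth ranged from 1382 to 2496 UMIs. The libraries of sow 1 at L20 and sow 2 at PI2 stood apart, with 34.9% and 34.5% of UMIs in genes over 100 kb against 39.7% to 49.3% in the others, so the comparisons of hormone-sensing-like nuclei are also given without them. Gland libraries shared 0.550% to 1.23% of the barcodes of the smaller library. Each nucleus was assigned to the class of which it held UMIs of the most marker genes, at least 2 and more than of any other class, and none of the 6 genes was a marker. Markers kept out of the assignment were higher in the class than in all other nuclei of the gland in at least 9 of 10 glands for T/NK-like, endothelial-like, mural-like, myoepithelial-like, fibroblast-like and adipocyte-like nuclei. They were weak for B/plasma-like nuclei, where CD22 was higher in 5 of 10 glands, and for neutrophil-like nuclei, where CXCL8 was higher in 3 of 10, so both names are tentative. For macrophage-like nuclei AIF1 and MERTK were higher in 10 of 10 glands, but CD14 in 6 of 10. Among luminal nuclei, a hormone-sensing-like set was taken by FOXA1, PRLR, ERBB4, TBX3, AREG, SPDEF and CITED1. The withheld markers TOX3 and GATA3 of this set were each higher in 9 of 10 glands than in all other nuclei, and GREB1, an estrogen target, in 7 of 10. A set taken by KIT, ALDH1A3, CD14, SOX9, GABRP and BARX2 is called KIT-list nuclei only, because SLPI, a check marker of it, was higher in 0 of 10 glands.

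ESR1 (ENSSSCG00000025777) spans chr1:14217032-14604906 on the minus strand of Sscrofa11.1, PGR (ENSSSCG00000014977) chr9:32035684-32129776 on the minus strand, and TNFSF11 (ENSSSCG00000009429) chr11:24468011-24505421 on the minus strand. TNFRSF11A (ENSSSCG00000004898) spans chr1:159128039-159187476 and NR3C1 (ENSSSCG00000014401) chr2:144822937-144956451, both on the minus strand, and NR3C2 (ENSSSCG00000037766) spans chr8:80303172-80669050 on the plus strand. The nuclear RNA counted per gene can come from introns as well as exons. Below are the 250 bases before the RefSeq start of the 3 genes that were highest in hormone-sensing-like nuclei, written 5′ to 3′ along each gene's strand, from chr1:14604907-14605156 for ESR1, chr9:32129777-32130026 for PGR and chr11:24505422-24505671 for TNFSF11. Capitals mark the short motifs GGTCA, the core of the estrogen response element, TGTTC, the core of the element shared by the progesterone, glucocorticoid and mineralocorticoid receptors, both searched on both strands, and TATAA, searched on the forward strand.
ESR1: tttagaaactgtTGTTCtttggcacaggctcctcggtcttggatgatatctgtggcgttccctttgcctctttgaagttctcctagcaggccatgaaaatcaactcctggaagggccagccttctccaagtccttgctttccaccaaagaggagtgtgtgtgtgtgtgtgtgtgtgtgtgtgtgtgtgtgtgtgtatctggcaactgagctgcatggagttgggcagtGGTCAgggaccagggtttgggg
PGR: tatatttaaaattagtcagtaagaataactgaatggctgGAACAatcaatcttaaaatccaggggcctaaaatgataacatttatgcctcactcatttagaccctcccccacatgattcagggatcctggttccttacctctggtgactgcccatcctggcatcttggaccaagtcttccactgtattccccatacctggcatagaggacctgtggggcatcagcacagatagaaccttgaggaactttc
TNFSF11: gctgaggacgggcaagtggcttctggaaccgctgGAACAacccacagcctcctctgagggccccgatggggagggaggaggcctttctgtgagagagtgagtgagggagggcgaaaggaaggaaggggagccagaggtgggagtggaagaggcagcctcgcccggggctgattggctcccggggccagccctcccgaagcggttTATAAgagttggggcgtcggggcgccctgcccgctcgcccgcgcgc
GGTCA lay in the windows of ESR1, NR3C2 and TNFRSF11A and in 33.0% of 19569 pig promoters of this length. TGTTC lay in those of ESR1, PGR, TNFSF11, NR3C1 and NR3C2 and in 27.1% of all. TATAA lay in that of TNFSF11 alone among the 6, from 46 to 42 bases before the start, and in 12.4% of all. The full palindromes, GGTCA and TGACC or GNACA and TGTNC with 3 bases between them, lay in 2 and 43 of the 19569 promoters and in none of the 6 windows. These matches describe letters only. The GC content was 51.6% for ESR1, 44.4% for PGR and 68% for TNFSF11, beside a median of 57.6% over all promoters.

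ESR1, PGR and TNFSF11 each had a higher level in hormone-sensing-like than in the other luminal nuclei of the same gland in 9 of 10 glands, and the receptor TNFRSF11A had a lower one. The set was small, from 55 of 14098 luminal nuclei in sow 2 of G90 to 413 of 4017 in sow 1 of PI7. A higher level there thus does not mean that most of the luminal RNA of a gene lay in the set. UMIs were summed per set and gland, and hormone-sensing-like nuclei were compared with all other luminal nuclei within the 10 glands. At an adjusted p under 0.05 and a log2 fold change over 1 in either direction, 4 of the 6 genes were called, 3 higher and 1 lower, where 9.2% of all 12829 genes tested were called.

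ESR1, through which estrogen acts, stood in hormone-sensing-like nuclei at 616 and 421 CPM in the sows of G90, 109 and 182 in those of L0, and 973 and 1840.1 in those of L20. During involution it stood at 2267 and 1505 CPM (PI2) and 1873 and 2426 (PI7). In the other luminal nuclei its level ranged from 38.8 to 183 CPM, with a median of 128 over the 10 glands. In the 8 glands of the other stages the hormone-sensing-like levels all lay above this range, and at L0 both lay within it. ESR1 was thus higher in hormone-sensing-like nuclei in 9 of 10 glands, with a log2 difference of 3.13 ± 0.54 (SE, n = 10 glands, adjusted p = 0.000464, edgeR's quasi-likelihood test with Benjamini-Hochberg adjustment).

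PGR, the progesterone receptor and itself a known estrogen target, stood at 781 and 499 CPM in hormone-sensing-like nuclei of G90, 25.8 and 65.7 of L0, 224 and 149 of L20, 137 and 131 of PI2, and 82.8 and 100.4 of PI7. Its level in the other luminal nuclei ranged from 3.93 to 30.2 CPM. Only sow 1 at L0 fell within that range. PGR was higher in 9 of 10 glands, by 3.28 ± 0.51 on the log2 scale (SE, adjusted p = 0.000193, edgeR).

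TNFSF11, the paracrine signal, had the largest log2 difference of the 6 genes. Its level there was 629 and 499 CPM for the G90 sows, 0 and 17.9 for L0, 107 and 265 for L20, 27.2 and 309 for PI2, and 312 and 58.9 for PI7, against 0.743 to 19.2 in the other luminal nuclei. Sow 1 at L0 held 0 TNFSF11 UMIs in 63 nuclei, and 3 UMIs, taken throughout as the limit that a count of 0 allows, would be 19.3 CPM. Both G90 libraries were the highest, and the sows of PI2 and of PI7 were each far apart. The log2 difference was 5.14 ± 0.44 (SE, higher in 9 of 10 glands, adjusted p = 3.16e-07, edgeR).

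TNFRSF11A, the receptor for RANKL, differed from the other luminal nuclei in the opposite direction. In hormone-sensing-like nuclei it stood at 102 and 111 CPM (G90), 135 and 197 (L0), 19.5 and 26.9 (L20, on 8 and 13 UMIs), 55.8 and 8.75 (PI2, the latter on 3 UMIs), and 25 and 24.1 (PI7). In the other luminal nuclei of the same glands it stood at 177 and 195, 236 and 335, 123 and 136, 125 and 24.2, and 63.0 and 75.3. It was lower in the hormone-sensing-like set in 10 of 10 glands, where it fell by 1.24 ± 0.16 on the log2 scale (SE, adjusted p = 3.48e-05, edgeR).

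NR3C1 and NR3C2 differed little between the sets. NR3C1 ranged from 99.2 to 313 CPM in hormone-sensing-like and from 106 to 357 in other luminal nuclei, and NR3C2 from 64.2 to 478 and from 91.6 to 494. Their log2 differences were -0.30 ± 0.11 and -0.33 ± 0.12 (SE), with adjusted p = 0.0777 and 0.0694 by edgeR's quasi-likelihood test, so neither was called.

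The L0 glands limit these values. At L0, FOXA1, which defines hormone-sensing cells, had a UMI in 1 of 63 and 7 of 122 nuclei of the set, and TOX3 stood at 0 and 5.97 CPM against 81.7 to 176 in the other 8 glands, so the L0 nuclei passed the selection almost only by PRLR and ERBB4. With PRLR and ERBB4 left out of the list, 1 nucleus remained at each L0 sow and 2 in sow 2 at G90. Of 411 nuclei in sow 1 of G90, 49 remained. Left at L20 were 17 of 103 and 24 of 88, and at PI2 135 of 454 and 7 of 65. At PI7 138 of 413 and 79 of 208 were left. FOXA1 had a UMI in 58 of 411 and 14 of 55 nuclei at G90 against 221 of 413 and 102 of 208 at PI7. At PI2 it had one in 183 of 454 and 14 of 65. The part of this uneven makeup in the stage levels was not tested. Fewer hormone-sensing nuclei at L0 and less of these RNAs in each of them cannot be told apart. Without both L0 libraries the log2 differences were 3.76 for ESR1, 3.79 for PGR, 5.40 for TNFSF11 and -1.37 for TNFRSF11A, and without the sow 1 library of L20 and the sow 2 library of PI2 they were 2.56, 3.04, 4.81 and -1.19. All 4 genes remained called in both.

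**Figure D1:**
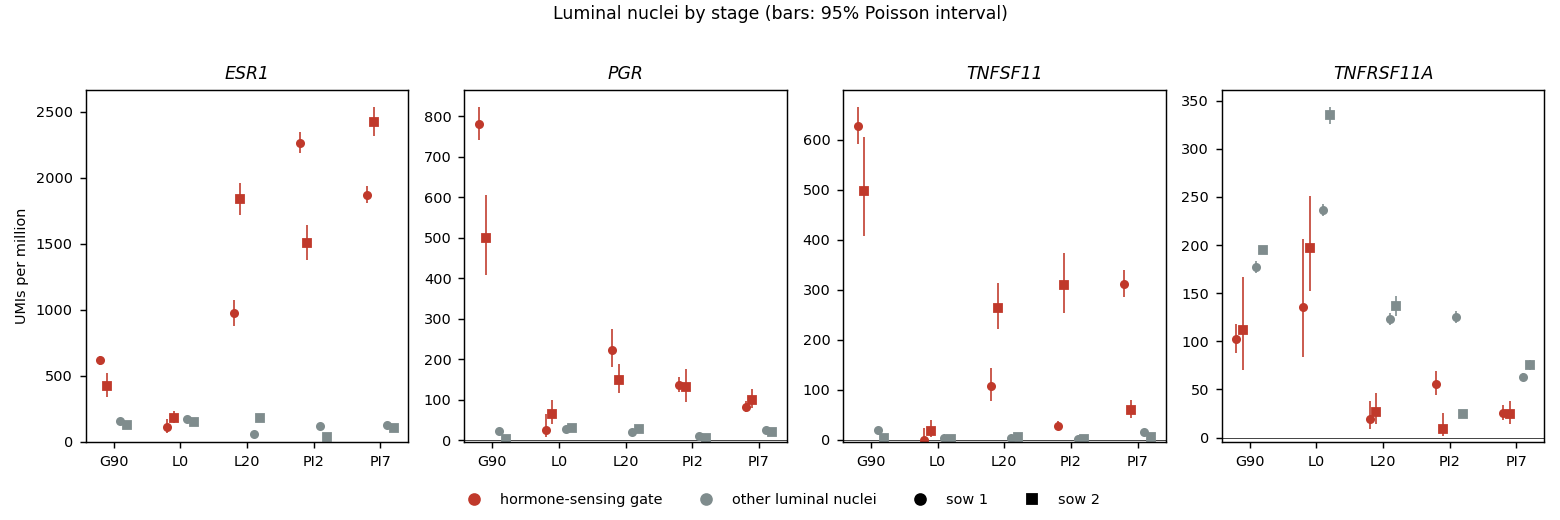
Level of ESR1, PGR, TNFSF11 and TNFRSF11A (y axis, CPM) by stage (x axis) in hormone-sensing-like nuclei (red) and in all other luminal nuclei (grey) of each gland, circles for sow 1 and squares for sow 2, with 95% Poisson intervals. PGR and TNFSF11 were highest in the red set at G90 (781 and 499, and 629 and 499), ESR1 was highest from L20 to PI7, and TNFRSF11A lay lower in red than in grey in each gland.

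A second count did not use the hormone-sensing markers. Luminal nuclei were thinned to 1000 UMIs each, and those with at least 3 ESR1 UMIs were counted. They made up 0.551% and 0.220% of the thinned luminal nuclei of the G90 sows (27 of 4902 and 30 of 13611), 0.491% and 0.470% for L0 (34 and 26 nuclei), 0.334% and 3.49% for L20 (19 of 5685 and 39 of 1117), 3.12% and 0.232% for PI2 (175 and 13 nuclei), and 3.39% and 2.31% for PI7 (125 and 93 nuclei). Sow 2 of L20 had the highest share, and the sows of L20 and of PI2 were far apart. Of these nuclei, 17 and 0 were in the hormone-sensing-like set at G90, 1 and 1 among those of L0, 10 and 20 among those of L20, 148 and 11 among those of PI2, and 107 and 68 among those of PI7. Most were thus in the set at involution and in sow 1 of G90, and few or none at L0 and in sow 2 of G90. This count was chosen after the data had been seen and has no test.

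Over the stages, in the nuclei selected as hormone-sensing-like, PGR was lower at L0 than at G90. At L20 ESR1 was higher and TNFRSF11A lower than at L0. These stage comparisons within the set were added after the data had been seen. Each call between stages below involves L0, where FOXA1 had a UMI in 1 of 63 and 7 of 122 nuclei of the set. At L0 ESR1 lay within the range of the other luminal nuclei, and whether these calls compare the same kind of nucleus was not tested. At L0 against G90, 1 of the 6 genes was called where 2.37% of the 9174 genes tested were (1.37% higher, 0.992% lower), namely PGR, which fell by 3.52 ± 0.54 on the log2 scale (SE, n = 2 against 2, adjusted p = 0.0108, edgeR). Its L0 levels rest on 4 and 22 UMIs. TNFSF11 at L0 against G90 had a log2 change of -5.42 ± 1.40 with an adjusted p of 0.0656, and ESR1 one of -1.63 ± 0.51 with an adjusted p of 0.125, in the same edgeR fit. The TNFSF11 change was called in 10 alternatives (-5.40 to -6.89), among them DESeq2 (adjusted p = 0.0194), stricter quality limits (0.0269, edgeR) and the fit without the libraries that stood apart (0.000140, edgeR), and the ESR1 change in 3. At L20 against L0, 2 of the 6 were called where 4.16% of all genes were (1.86% higher, 2.3% lower). ESR1 was higher by 3.25 ± 0.54 (SE, adjusted p = 0.0100, edgeR), and TNFRSF11A fell by 2.82 ± 0.60 (SE, adjusted p = 0.0237, edgeR). The L20 levels of TNFRSF11A rest on 8 and 13 UMIs. PGR, with a log2 change of 1.97 ± 0.52 and an adjusted p of 0.0545 (edgeR), was not called, but was in 6 alternatives. Over all 5 stages ESR1, PGR and TNFRSF11A differed (adjusted p = 0.0105, 0.00799 and 0.0190, edgeR's F test), where 3.38% of all genes did. These differences did not all hold without 1 sow of L0, and more of the 6 genes passed without 1 sow of PI2. Such fits leave 1 sow in a stage, and the share of all genes that passed in them is not given here, so nothing is read from them.

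Neither step of involution was called for any of the 6 genes in these nuclei. For PI2 against L20 and for PI7 against PI2 edgeR called 0 of the 9174 genes (0%), with 411 and 204 genes at an unadjusted p under 0.05, and DESeq2 called 1 and 2. The calls that involve L0 were lost without some single libraries, in fits where 1 sow was left in a stage and was taken to vary like the other stages, so a lost call there does not show a smaller change. PGR at L0 against G90 was not called without sow 2 of G90 (-3.83) or without sow 1 of L0 (-3.05). Over all fits without 1 library its change ranged from -4.54 to -3.05. Both calls of L20 against L0 were lost without either L0 sow, with 2.91 and 3.80 for ESR1 and -3.10 and -2.41 for TNFRSF11A. Without the libraries of sow 1 of L20 and sow 2 of PI2 together the changes were -3.52 for PGR, 3.58 for ESR1 and -2.68 for TNFRSF11A, all called. The TNFRSF11A call was also lost without sow 1 or sow 2 of L20 (-2.69 and -2.98). In all, 6 of its 18 alternatives lost the call. Its smallest change, -1.88, came from another setting and not from leaving out a single library (-3.10 to -2.41). Markers of the set moved unevenly over these stages. GATA3, which was not used to choose the nuclei, stood at 571 and 600.4 CPM for G90, 90.1 and 137 for L0, and 462 and 602 for L20, and AREG, which was used, at 44.4 and 107, 0 and 2.98, and 85.1 and 86.8. CITED1, also used, stood at 18.3 and 14.5, 19.3 and 5.97, and 4.87 and 4.14. Whether the 6 genes changed apart from the makeup of the set was not tested.

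Across all 14 classes, 15 of the 84 comparisons of a gene in a class with the mean of the other classes were called, 8 higher and 7 lower, where 12.5% of all such comparisons were. The share of calls among the 6 genes was of the same order as this background. In hormone-sensing-like nuclei ESR1, PGR and TNFSF11 were higher by 4.33 ± 0.17, 4.11 ± 0.22 and 5.19 ± 0.21 on the log2 scale (SE, adjusted p = 8.23e-46, 4.79e-34 and 3.93e-45, edgeR with gland as a block). This fit takes 1 spread per gene over the sums of all 14 classes. Its SEs and p values, here and in the class comparisons below, thus do not measure the spread of a single class between sows. For these genes the log2(CPM + 1) difference from the other luminal nuclei had an SD between glands of 1.95, 1.97 and 2.47. No other class was called higher for ESR1 or TNFSF11 here, but under a stricter gate, with at least 3 marker genes and 2 more than of any other class, luminal nuclei of no subset were called higher for both (1.03 and 1.05) and T/NK-like nuclei for TNFSF11 (1.15).

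Outside the hormone-sensing-like set, ESR1 had mean levels from 52.7 CPM in T/NK-like nuclei to 168 in the few adipocyte-like nuclei (60.1, 72.4 and 371 CPM in 3 glands, the last on 23 UMIs), with 135 in secretory luminal, 82.6 in fibroblast-like and 53.0 in blood endothelial-like nuclei. It was lower in T/NK-like nuclei by 1.06 ± 0.26 below the mean of the others on the log2 scale (called, edgeR), a call that was lost without sow 2 of PI2 or sow 2 of PI7 (-0.94 and -0.96), and in each case the fold, not the adjusted p, missed the limit. PGR was higher in adipocyte-like nuclei by 2.33 ± 0.57 (SE, adjusted p = 0.00103, edgeR), from 27.9, 145 and 48.4 CPM in 3 glands with 432, 29 and 22 such nuclei. Without the PI2 gland of sow 1, with its 16 PGR UMIs, it was 1.43 and not called. PGR was lower in lymphatic endothelial-like and macrophage-like nuclei, by 1.44 and 1.11 below the mean of the others, with mean levels of 4.58 and 8.17 CPM. The macrophage call was lost in 7 of 19 alternatives, among them those without sow 1 of L0, sow 1 of PI7 or sow 2 of PI7 (-0.99, -0.95 and -0.99) and the stricter gate (-0.37), and the lymphatic call in 3 of 19, among them the stricter gate (-0.97).

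TNFSF11 in classes other than the hormone-sensing-like set had means from 2.89 to 32.8 CPM, the latter in adipocyte-like nuclei from 0, 1.61 and 96.8 CPM in 3 glands, the last on 6 UMIs. In T/NK-like nuclei, a known source of RANKL, the mean was 14.2 CPM with a range of 0 to 30.7. In fibroblast-like nuclei it reached 34.7 CPM in sow 1 of G90, the gland with the highest luminal level (69.6), and 17.7 in sow 1 of PI7, the gland with the next highest (50.2). RNA free in the droplets was not removed from these counts, and its part in such low values was not tested.

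TNFRSF11A had its highest mean in blood endothelial-like nuclei (202 ± 53.0 CPM, SD, n = 10) and the next in secretory luminal nuclei (171 ± 99.3). Both were called higher than the mean of the other classes, by 1.68 ± 0.18 and 1.45 ± 0.17 on the log2 scale (SE, adjusted p = 3.10e-14 and 4.19e-12, edgeR). In secretory luminal nuclei it stood at 204 and 197 CPM (G90), 243 and 377 (L0), 143 and 209.8 (L20), 129.8 and 24.2 (PI2), and 97.6 and 79.8 (PI7). In blood endothelial-like nuclei it stood at 197 and 194, 205 and 316, 120.4 and 177, 229 and 149.6, and 192 and 238. In secretory nuclei both PI7 sows and sow 2 of PI2 were the lowest of the 10 glands, whereas in endothelium the PI7 sows lay within the range of the other stages. TNFRSF11A was lower in adipocyte-like nuclei (6.96 ± 6.18 CPM, SD, n = 3), by 2.50 ± 0.60 below the other classes on the log2 scale. In hormone-sensing-like nuclei it was not called against the mean of the other classes (-0.19 ± 0.23, SE, adjusted p = 0.60, edgeR), but it was called lower there under the stricter gate (-1.32).

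NR3C1 was spread over all classes and called in none of the 14. Its mean was highest in mural-like nuclei (404 ± 95 CPM, SD, n = 6), then in T/NK-like (373 ± 147), macrophage-like (366 ± 142) and fibroblast-like nuclei (357 ± 94.2). It was lowest in myoepithelial-like (182 ± 64.4) and neutrophil-like nuclei (149.5 ± 47.9, n = 2). NR3C2 was more uneven. It was highest in lymphatic endothelial-like nuclei (429.9 ± 135 CPM), where it was called higher by 1.12 ± 0.13 on the log2 scale (adjusted p = 1.71e-12, edgeR), a call whose fold fell to 0.96 without sow 1 of PI7. KIT-list nuclei (340.3 ± 121) were called higher by 1.0 ± 0.12, at the very limit of the fold, and 8 of the 10 fits without 1 library fell below it, from 0.74 to 0.99, as did the fit without both libraries that stood apart (0.77). NR3C2 was called lower in T/NK-like (104 ± 44.9, log2 difference -1.17), B/plasma-like (111 ± 52.5, -1.20) and neutrophil-like nuclei (53.8 ± 35.1, -2.18). The B/plasma value ranged from -2.57 to -0.83 over 19 alternatives, of which 1 lost the call.

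The classes were put in order of mean level for each gene, and p values were adjusted over the pairs of that gene and gate only, not over the pairs of all 6 genes. At an adjusted p under 0.05 by this rule, 1 of 77 neighbouring pairs differed beyond the spread between glands. This was ESR1 in luminal nuclei of no subset (134 CPM) against KIT-list nuclei (89.7), which was higher by 0.62 ± 0.24 (SD) on the log2(CPM + 1) scale in 10 of 10 glands (exact two-sided sign-flip permutation test, adjusted p = 0.0254). Under the stricter gate these sets were no longer neighbours, and the 1 pair of 71 that passed was TNFRSF11A in secretory luminal nuclei against luminal nuclei of no subset, higher by 0.56 ± 0.64 (SD) in 9 of 10 glands (exact permutation test, adjusted p = 0.0469). Pairs on 2, 3 or 6 glands cannot go below an unadjusted p of 0.5, 0.25 or 0.0313 in the exact test and could not pass alone after adjustment, and pairs on 9 glands could barely do so, so the pairs that did not pass are not shown to be alike. Among these were ESR1 and TNFSF11 in hormone-sensing-like against adipocyte-like nuclei, higher by 4.06 and 4.39 on the log2 scale in 3 of 3 glands.

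**Figure D2:**
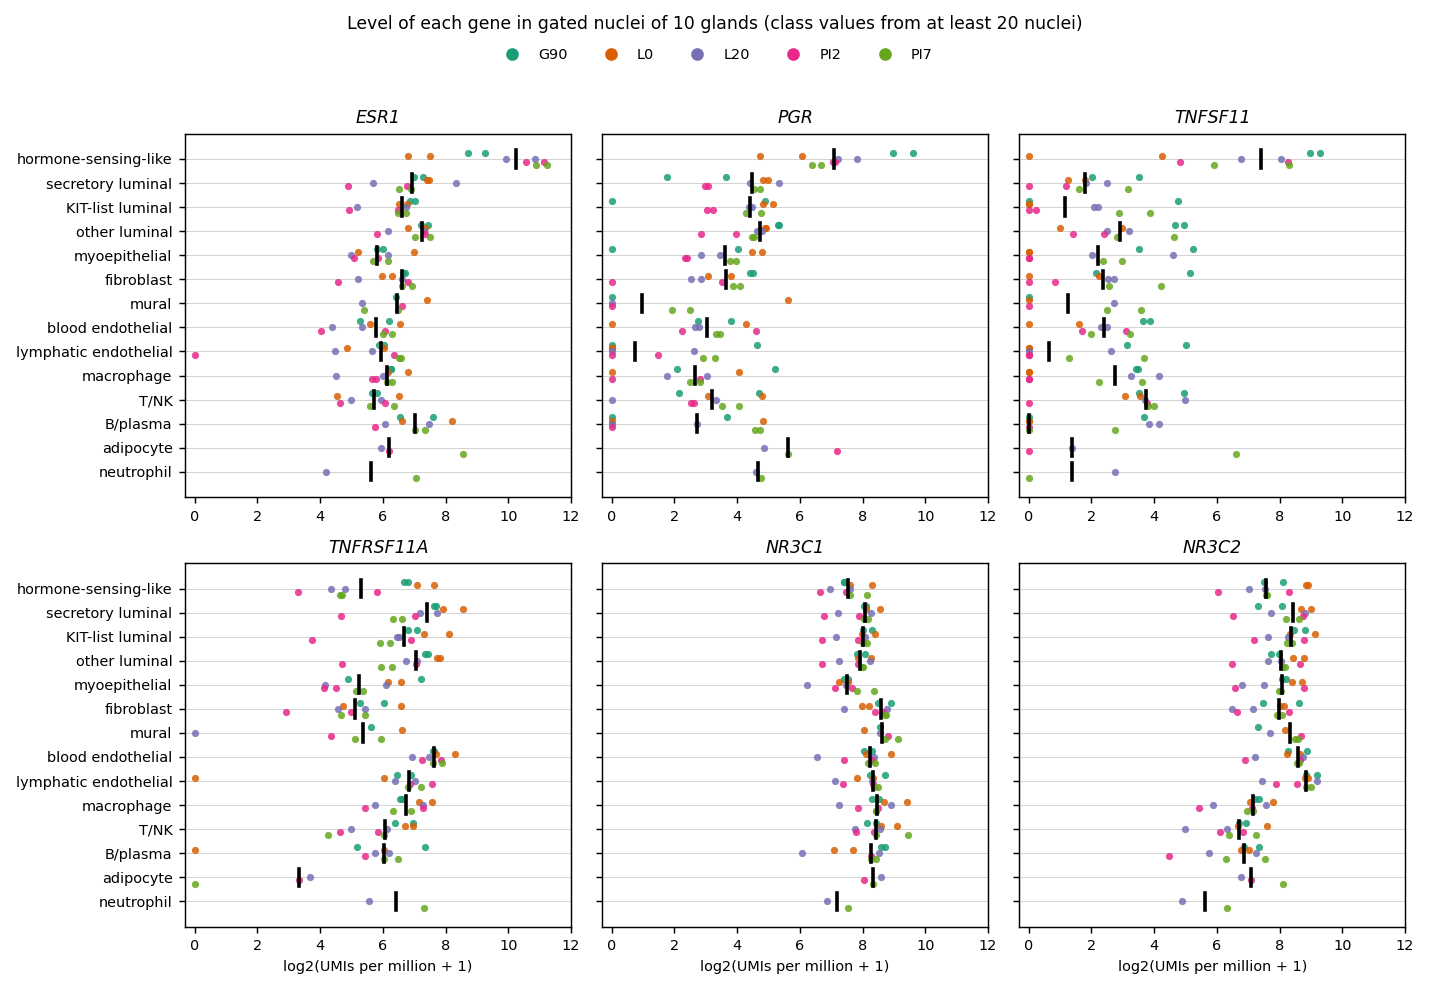
Level of each gene (x axis, log2(CPM + 1)) in the nuclei of each marker-gated class (y axis), 1 point per gland with at least 20 such nuclei, coloured by stage, with a black bar at the median over glands. ESR1, PGR and TNFSF11 stand out in hormone-sensing-like nuclei (medians 1239, 134 and 186 CPM), TNFRSF11A is highest in blood endothelial-like and secretory luminal nuclei, and NR3C1 was called in none of the classes.

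PGR was found more often in luminal nuclei with an ESR1 UMI, and TNFSF11 in those with a PGR or an ESR1 UMI, than in nuclei without one. In luminal nuclei thinned to 1000 UMIs, the share with a PGR UMI was higher among nuclei with an ESR1 UMI than among those without by 2.43 ± 2.20 percentage points (SD, n = 10 glands, higher in 10 of 10, exact sign-flip permutation p = 0.00195, the smallest it can give, adjusted p = 0.00521 over 4 pairs). At L0 this difference was only 0.10 and 0.05 points, and with nuclei thinned to 500 UMIs it was above 0 in 9 of 10 glands. For TNFSF11 given PGR the difference was 7.71 ± 12.3 points (higher in 9 of 10, exact permutation p = 0.00391, adjusted p = 0.00521). At G90, 60 of 149 PGR-positive nuclei of sow 1 (40.3%) and 11 of 55 of sow 2 (20%) held a TNFSF11 UMI, against 1.56% and 0.302% of PGR-negative nuclei. In the other 8 glands the share among PGR-positive nuclei was 0% to 5.71%, on 0 to 4 nuclei per gland with both UMIs. Among PGR-negative nuclei of these glands it was 0.148% to 3.10%, the latter in sow 1 of PI7, where 4 of 100 PGR-positive nuclei held one. Without sow 1 of G90 the mean difference was 4.26 points, and with nuclei thinned to 500 UMIs it was 4.84 and higher in 6 of 9 glands. As a measure of background, 1.28% and 0.549% of thinned blood endothelial-like nuclei at G90 held a TNFSF11 UMI, at the same depth of 1000 UMIs per nucleus. Before thinning, the median depth was 1754 and 1571 UMIs there and 3753 and 2899 in luminal nuclei, and 2.59% and 0.816% of endothelial-like and 5.49% and 0.787% of luminal nuclei held a TNFSF11 UMI.

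TNFSF11 was also more often found with ESR1, by 3.46 ± 3.77 points (higher in 9 of 10, exact permutation p = 0.00391, adjusted p = 0.00521). The highest share was 13.3% of ESR1-positive nuclei in sow 1 of PI7, against 1.45% of ESR1-negative ones, and sow 1 of G90 came next with 8.08% against 1.82%. At L0 the shares were 0.109% and 0.438% with and 0.316% and 0.165% without ESR1, so that no excess was seen in sow 1. NR3C2 was found in 7.01% to 34.0% of nuclei with NR3C1 and in 6.72% to 30.9% of those without, a difference of 2.01 ± 2.07 points (higher in 9 of 10, exact permutation p = 0.0176, adjusted p = 0.0176). Without thinning the 4 differences were 5.43 points for PGR given ESR1, 11.96 for TNFSF11 given PGR, 4.80 for TNFSF11 given ESR1 and 11.2 for NR3C2 given NR3C1.

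**Figure D3:**
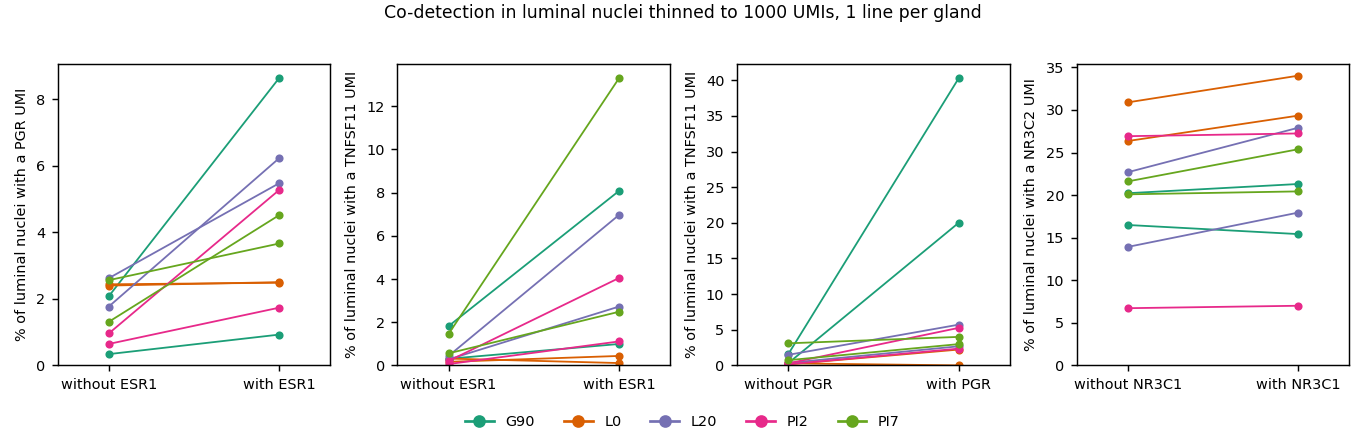
Share of luminal nuclei with a UMI of gene B (y axis, percent) among nuclei without and with a UMI of gene A (x axis), nuclei thinned to 1000 UMIs, 1 line per gland coloured by stage. TNFSF11 given PGR reaches 40.3% and 20% in the G90 glands and at most 5.71% in the others.

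In whole glands, sows of the same stage often lay far apart, and none of the 6 genes was called between stages. With 2 sows per stage, the absence of a call does not show that levels did not differ. The L20 glands differed in makeup, with luminal nuclei at 54.0% of nuclei in sow 1 and 7.98% in sow 2. Fibroblast-like nuclei made up 6.27% and 30.9%, and macrophage-like nuclei 2.33% and 14.0%. TNFSF11 stood at 55.9 and 6.26 CPM (G90), 3.28 and 2.02 (L0), 6.01 and 10.8 (L20), 2.87 and 8.13 (PI2), and 26.8 and 7.29 (PI7). Sow 1 of G90 was the highest of the 10 glands and sow 2 of G90 lay within the range of the other stages. The hormone-sensing-like set made up 3.60% of nuclei in sow 1 and 0.294% in sow 2 of G90. TNFRSF11A stood at 145 and 189 CPM (G90), 221 and 312 (L0), 109 and 87.3 (L20), 109 and 27.1 (PI2), and 86.5 and 80.2 (PI7). Both L0 sows lay above the other 8 glands.

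For adjacent stages in whole glands, edgeR called 0 of 22695 genes (0%) in each of the 4 comparisons, with 1652, 2912, 817 and 464 genes at an unadjusted p under 0.05 from L0 against G90 to PI7 against PI2, and DESeq2 called 369, 1095, 14 and 15. Among the 6 genes, TNFSF11 at L0 against G90 had a log2 change of -2.94 ± 0.91 (SE, adjusted p = 0.429, edgeR) and was called by DESeq2 (-2.91). TNFRSF11A at L20 against L0 had one of -1.90 ± 0.66 (adjusted p = 0.269, edgeR). Over any stage, edgeR called 0 of the 6 genes and 0 of all 22695, and DESeq2 called TNFRSF11A, where it called 1494 of the 22695 genes. TMM scaling moved the median of all genes by 0.43, -0.58, 0.35 and -0.37 on the log2 scale in these 4 comparisons relative to scaling by library size, and the directions given here were the same under both.

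Within luminal nuclei as a whole, 0 of the 6 genes were called at any step, where edgeR called 1 of 19385 genes (0.00516%) at L0 against G90 and 0 at the 3 later steps, with 2364, 2667, 624 and 517 at an unadjusted p under 0.05, and DESeq2 called 885, 1042, 8 and 23. Over any stage edgeR called 25 genes (0.129%), of which 0 were among the 6. TNFSF11 in luminal nuclei stood at 69.6 and 6.14 CPM at G90 and at 3.04 and 1.58 at L0, a log2 change of -3.48 ± 1.15 (adjusted p = 0.246, edgeR), which DESeq2 called (-3.53). PGR, in contrast to the hormone-sensing-like set, overlapped between these stages, with 86.0 and 6.14 CPM at G90 and 27.4 and 30.9 at L0. In fibroblast-like nuclei 0 of the 6 genes and 0 of 13437 genes in all were called (0%), with 764, 836, 541 and 282 at an unadjusted p under 0.05, and DESeq2 called 28, 47, 6 and 1. Over any stage 1 gene was called in fibroblast-like nuclei (0.00744%), and it was none of the 6. NR3C1 in fibroblast-like nuclei stood at 359 and 473 CPM (G90), 254 and 296 (L0), 169.9 and 434 (L20), 401 and 337 (PI2), and 420.0 and 426 (PI7). The L0 values lay below those of both G90 sows, and the L20 sows lay on either side of them.

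**Figure D4:**
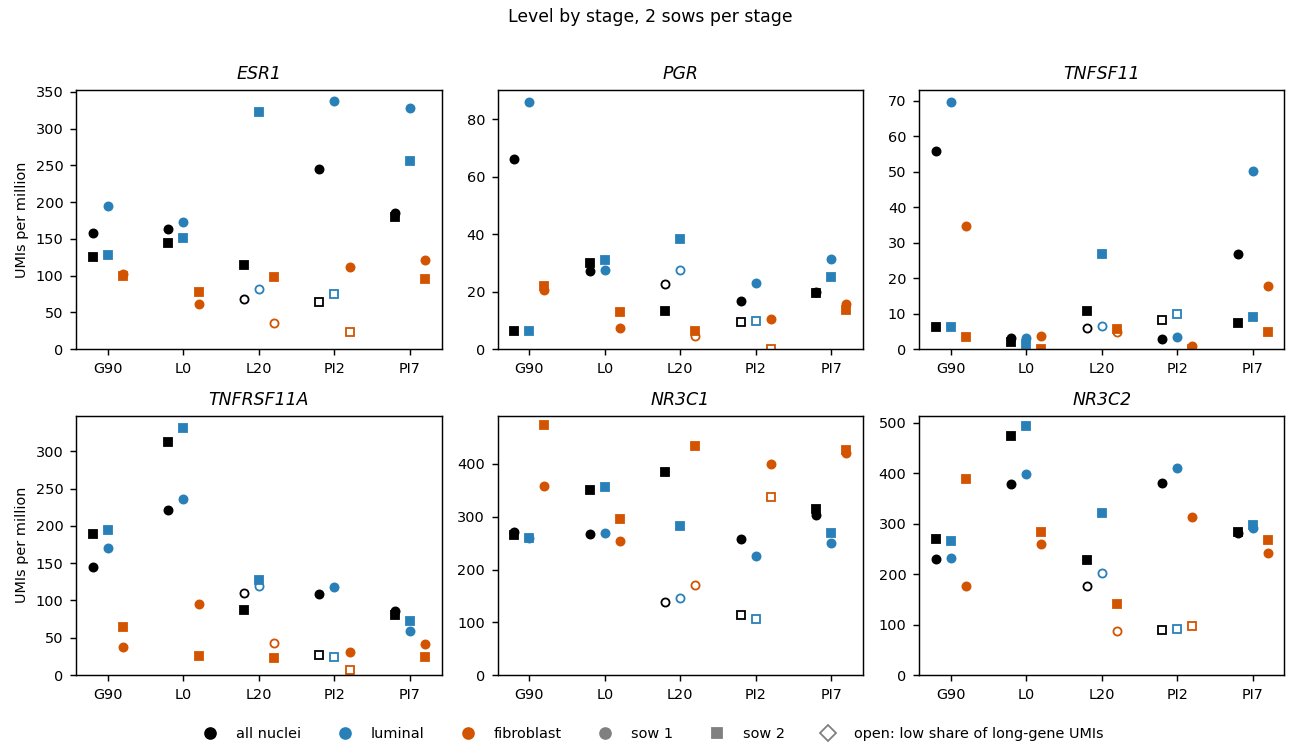
Level of each gene (y axis, CPM) by stage (x axis) in all nuclei (black), luminal nuclei (blue) and fibroblast-like nuclei (orange), circles for sow 1 and squares for sow 2, with open symbols for the libraries with 34.9% and 34.5% of UMIs in genes over 100 kb. TNFRSF11A was highest in both L0 glands (221 and 312), and TNFSF11 was high in 1 of the G90 glands (55.9).

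The other genes of these pathways were taken from lists of chaperones and coregulators, steroid metabolism, estrogen and progesterone targets, glucocorticoid and mineralocorticoid targets, and the RANK pathway. In hormone-sensing-like against other luminal nuclei, 4 of 8 tested estrogen and progesterone targets were higher, where 5.92% of all genes were. AREG (6.10) and FOXA1 (5.81) were markers used to choose the set and so are no result. Of the other 6 genes MYB (4.15) and GATA3 (1.90), a luminal transcription factor, were higher. The list median of 1.39, beside -0.10 for all genes on the log2 scale, includes both markers.

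In the RANK pathway, ID2, a transcriptional regulator acting below RANK in the mammary gland, was higher (1.1 ± 0.33) and RELB, a subunit of NF-kB, fell by 1.13 ± 0.18 relative to other luminal nuclei, out of 9 genes tested (list median -0.29 beside -0.10 for all genes), where 5.92% of all genes were higher and 3.27% lower. LGR4, another receptor of RANKL, had a log2 difference of -1.0 ± 0.19 and was just short of the limit. Of 12 chaperones and coregulators, 6 genes of steroid metabolism and 10 glucocorticoid and mineralocorticoid targets, 0, 0 and 0 passed where 9.2% of all genes did, with list medians of -0.09, 0.44 and 0.13, and nothing is read from counts in lists this short. In the stage comparisons of the hormone-sensing-like set, LGR4 was higher at L0 than at G90 by 1.72 and then fell by 2.66 to L20, the same direction as TNFRSF11A at the later step. At each of these steps 1 of 10 RANK pathway genes was called, where 2.37% and 4.16% of all genes were. Both steps rest on the doubtful L0 set, and nothing is read from them. Glucocorticoid targets at L0 against G90 were not called in luminal nuclei (0 of 10, where 0.00516% of all genes were, with a list median of 1.08 beside -0.08 for all genes), with log2 changes from -0.68 for SCNN1G to 4.19 for ZBTB16 and adjusted p values from 0.0792 to 0.972 (edgeR).

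Some genes varied over classes and glands much as the 6 did. Over 120 sums of nuclei by class and gland and 16304 genes, ESR1 was closest to PRLR, the prolactin receptor and a marker of the set (Pearson's r = 0.77), then to LAPTM4B and HACD3 (0.75 and 0.74). PGR was closest to EREG, an EGF-family ligand, FOXA1 and TMEM196 (0.61, 0.58 and 0.57), and TNFSF11 to NALF1, RAB3B and EREG (0.71, 0.71 and 0.70). TNFRSF11A was closest to ADGRG6, FAM189A2 and EEF2K (0.61, 0.60 and 0.57), NR3C1 to ASH1L, UBR2 and DNAJB14 (0.63, 0.63 and 0.62), and NR3C2 to NFIA, CDC42BPA and MAGI1 (0.78, 0.75 and 0.73). These correlations describe sums that share libraries and differ in depth.

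In the tissue sections, TNFSF11 and PGR were far more abundant at G90 than at PI2. Each stage had 1 section, of 4721 spots with 42815421 UMIs at G90 and 2248 spots with 17906403 UMIs at PI2, so that no test was possible, intervals cover counting error only, and a spot can hold several cells. TNFSF11 had 935 UMIs (21.8 CPM, 95% Poisson interval 20.5 to 23.3) at G90 and 3 UMIs (0.168 CPM, 0.0346 to 0.490) at PI2, a ratio of 130.3 with an interval of 44.5 to 633. PGR had 117 UMIs (2.73 CPM) and 5 UMIs (0.279 CPM), a ratio of 9.79 (4.08 to 30.7). Over all nuclei of the glands TNFSF11 stood at 55.9 and 6.26 CPM for the G90 sows and at 2.87 and 8.13 for those of PI2, and these ranges overlapped.

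ESR1 was higher at PI2 in the sections, with 373 UMIs (20.8 CPM) against 590 (13.8 CPM), a ratio of PI2 to G90 of 1.51 (1.32 to 1.72). TNFRSF11A was lower at PI2, with 17.3 against 36.2 CPM (G90 to PI2 2.10, 1.85 to 2.38), as was NR3C1, with 38.9 against 54.1 (1.39, 1.28 to 1.51). NR3C2 stood at 9.44 CPM at PI2 and 7.22 at G90 (1.31, 1.08 to 1.58). The marker lists moved too: the luminal list stood at 1954 CPM at G90 and 2773 at PI2, the fibroblast list at 3752 and 3287, the hormone-sensing list at 115 and 98.6, FOXA1 at 5.30 and 25.9, AREG at 6.14 and 0.391, and PRLR at 56.4 and 11.5. Their part in the differences was not tested, and fewer cells of a type and less RNA per cell cannot be told apart in spots.

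At G90 the TNFSF11 level followed the luminal share of the spots. In terciles of spots from the lowest to the highest share of luminal-list UMIs it stood at 12.3, 18.7 and 32.5 CPM, with intervals that did not overlap (10.3 to 14.5, 16.7 to 20.9 and 29.7 to 35.5). ESR1 stood at 11.3, 12.7 and 16.9 CPM at G90 and at 12.9, 17.8 and 27.6 at PI2. TNFRSF11A was even, with 31.7, 37.5 and 37.9 CPM at G90 and 17.9, 18.7 and 15.5 at PI2, and NR3C1 stood at 51.9, 51.8 and 58.3 CPM at G90 and at 48.2, 35.8 and 37.7 at PI2, with no common direction.

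**Figure D5:**
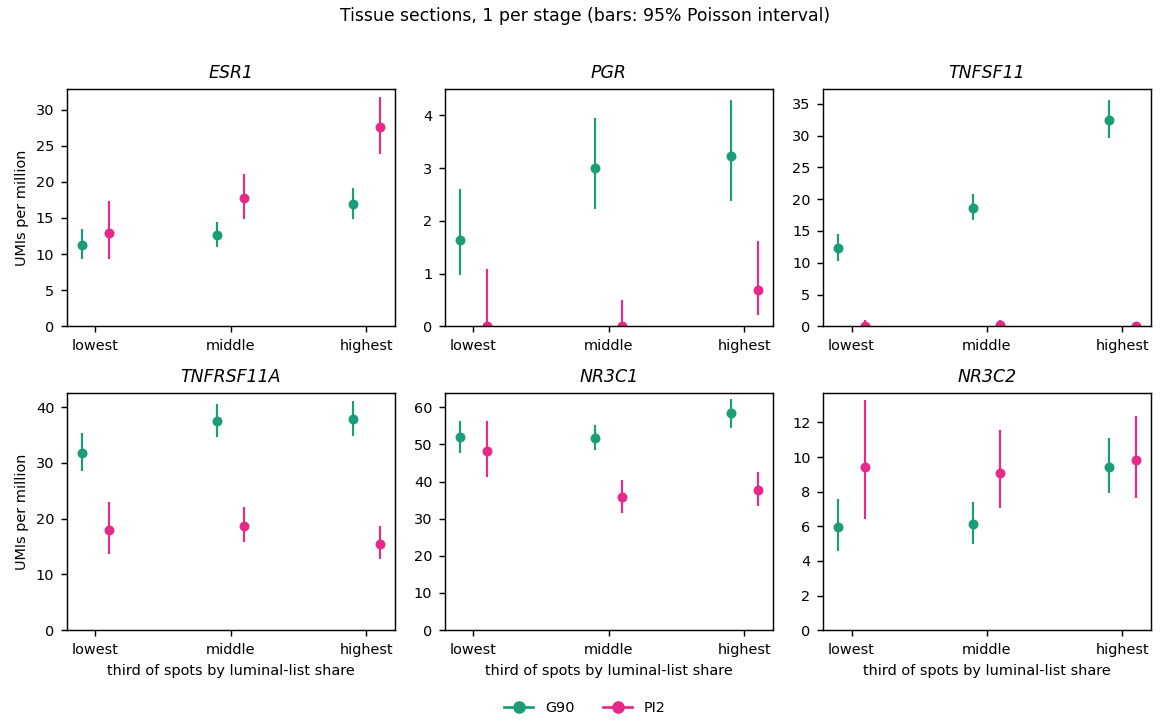
Level of each gene (y axis, CPM) in terciles of spots by their share of luminal-list UMIs (x axis) in the G90 (green) and PI2 (pink) sections, with 95% Poisson intervals. TNFSF11 rises from 12.3 to 32.5 over the terciles at G90 and lies near 0 at PI2, while ESR1 in the highest tercile is 16.9 at G90 and 27.6 at PI2.

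In milk cells, UMIs of all 6 genes were found at both stages. There was 1 library per stage, so no test was possible. Of the 17571 cells kept at L0 and the 14514 at L20, none passed the selection for hormone-sensing-like cells. TNFRSF11A stood at 62.1 CPM at L0 and 16.6 at L20 over all cells. In secretory luminal-like milk cells it stood at 86.4 CPM (83.9 to 88.9) at L0 and 54.0 (48.7 to 59.7) at L20, against 13.5 and 10.9 in macrophage-like and 10.1 and 5.35 in neutrophil-like cells. Secretory luminal-like cells numbered 2591 at L0 and 423 at L20, with a median depth of 18863 and 7579 UMIs. They held 52971960 of the 80995806 UMIs kept at L0 and 7089254 of the 42948881 at L20. Levels over all milk cells thus also depend on this makeup. The marker check given above covers glands only.

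NR3C1 stood at 59.7 CPM at L0 and 96.4 at L20 over all milk cells. It was lower in secretory luminal-like cells (37.5 and 20.7 CPM) than in neutrophil-like (107 and 132), T/NK-like (126 and 119.9) and macrophage-like cells (85.9 and 70.9). NR3C2 stood at 11.9 and 8.32 CPM in secretory luminal-like cells and at 9.04 and 4.21 in neutrophil-like ones. ESR1 stood at 3.59 and 6.35 CPM and PGR at 1.94 and 2.96 in secretory luminal-like cells. TNFSF11 had 2 UMIs in these cells at L0 (0.0378 CPM, 0.00457 to 0.136) and 0 at L20, where 3 UMIs would be 0.423 CPM, and 13 and 22 UMIs in macrophage-like cells (5.15 and 2.34 CPM).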

How the data were processed

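Nuclei of 10 glands, cells of 2 milk samples and spots of 2 tissue sections were counted. The authors deposited UMI counts per gene, not normalized, made with CeleScope and the Sscrofa11.1 genome for nuclei and cells and with Space Ranger for sections (version 1.2.0 in the submitters' processing notes). Which annotation release they used is not given in these sources.

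From these counts, nuclei were kept that had 300 genes or more and no more than 25% mitochondrial UMIs, and no doublet caller was run. Ambient RNA was not removed. Sums of at least 20 nuclei per class and gland were tested with edgeR 4.0.16 (TMM, filterByExpr, quasi-likelihood F test, Benjamini-Hochberg) in R 4.3.3, over all genes, with gland as a block between classes. Calls needed an adjusted p under 0.05 and a log2 fold change over 1. Sections and milk had no replicates and got exact 95% Poisson intervals, which cover counting error only. Sows of a stage are separate animals. Levels were not compared between genes. Of the 30071 gene identifiers 15983 had symbols in the files and 615 took one from the reference. Sequences came from RefSeq. The genes named were, by rule, the 6 genes, the genes of pathway lists and the 3 genes most correlated with each of the 6.

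The 6 genes and the lists were chosen with earlier results of these data known. DESeq2 1.42.0, other filters, scalings, gates and thinnings (to 500 UMIs in place of 1000) and each library left out were tried. Same-numbered sows were not paired: their deviations from the stage means correlated from -0.50 to 0.36 between stages. The procedure was tested on simulated counts, where it recovered nearly all changed genes between hormone-sensing-like and other luminal nuclei but few or none between stages. Results of 1 list and of 1 check marker are not reported here.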

Additional observations from a re-analysis of the deposited data

Results flagged for a closer look

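NR3C1 lay higher at L0 than at G90 in luminal nuclei and lower in fibroblast-like nuclei, though neither change was called (luminal 0.64 ± 0.43 on the log2 scale, adjusted p = 0.63; fibroblast-like -0.66 ± 0.53, adjusted p = 0.91, edgeR). In luminal nuclei the L0 sows stood at 269 and 357 CPM and the G90 sows both at 260 (259.8 and 260.1), so both L0 sows were higher, sow 1 by little. In fibroblast-like nuclei the L0 sows stood at 254 and 296 CPM and the G90 sows at 359 and 473, so both were lower. The mean change in luminal nuclei exceeded that in fibroblast-like nuclei by 0.84 on the log2(CPM + 1) scale, which carries no TMM scaling. At this step TMM scaling moved the median of all genes by 0.39 in luminal and 0.03 in fibroblast-like nuclei. What drew attention to it is that all samples of one class moved one way and all of the other class the opposite way, and the difference between the classes was not tested. Both classes came from the same 4 glands.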

How the results depend on the processing

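Of 899 values recomputed under other settings, 813 were classed as the same, 45 kept their direction but lost the call, 41 moved and 0 reversed. For log2 changes, the same meant that direction and side of the threshold were kept. Counts of called genes were also among these values, and a small shift in a count was classed as the same. An example is 3 in place of 4 genes called between hormone-sensing-like and other luminal nuclei. Counts and milk levels have no direction, so the 0 reversed says nothing about them. Counts below are of the 6 genes called. Under DESeq2 the count was 1 for L0 against G90 in whole glands and 1 in luminal nuclei (0 by edgeR in both), 1 over any stage in each, and 3 for L0 against G90 in hormone-sensing-like nuclei, where edgeR gave 1. Of all genes DESeq2 called 369 of 22695, 885 of 19385, 1494 of 22695, 2222 of 19385 and 429 of 9174 in these comparisons. For the other settings the share of all genes called is not given here, so their counts are not read as a result about the 6 genes. Without a filter on low counts it was 1 for L0 against G90 and 1 over any stage in luminal nuclei, and 2 for L0 against G90 and 4 for L20 against L0 in hormone-sensing-like nuclei. Scaling by library size gave 2 for L0 against G90 there, and so did stricter limits on genes and mitochondrial UMIs, which gave 1 for L20 against L0. With only the 2 stages fitted, the counts there were 3 and 5. With PRLR and ERBB4 left out of the marker list, 1 gene was called from L20 to PI2 (TNFSF11, -2.86), but only sow 2 of L20 and sow 1 of PI2, with 24 and 135 nuclei, reached the minimum of 20, so this compares 1 library with 1 and nothing is read from it. Without sow 1 of L20 and sow 2 of PI2, 1 was called over any stage in luminal nuclei, and 3 for L0 against G90 and 5 over any stage in hormone-sensing-like nuclei. Without a gland block 3 genes differed between hormone-sensing-like and other luminal nuclei, and under a stricter gate 25 of the class comparisons were called in place of 15. Leaving out 1 library gave 0 to 2 for L0 against G90, 0 to 5 for L20 against L0 and 0 to 5 over any stage in hormone-sensing-like nuclei, and 0 to 1 over any stage in luminal nuclei. The cause of these shifts was not tested. In milk, stricter limits gave 53.3 and 75.0 CPM for NR3C1 and 69.4 and 20.8 for TNFRSF11A at L0 and L20. The paired fit with a replicate block changed no count (1 for L0 against G90 and 2 for L20 against L0 in hormone-sensing-like nuclei, 0 in whole glands), and the numbers do not pair the sows. With 2 sows per stage, differences between single animals and stages are hard to separate, and 55 to 454 hormone-sensing-like nuclei per gland limit the precision of PGR and TNFSF11 there. No doublet caller was run. Chosen after the data had been seen were the stage comparisons within hormone-sensing-like nuclei and the count of nuclei with at least 3 ESR1 UMIs. So were the fits without both L0 libraries or without the libraries that stood apart.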
